A study of Mus musculus with 32 samples.

Results

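The genes described here are the integrins, the talins and the cytoplasmic proteins of focal adhesions. They comprised 34 genes, taken by symbol from the 31053 genes of the count matrices, and each was found once. Of these, 15 encode integrin alpha subunits (*Itga1* to *Itga11*, *Itgav*, *Itgal*, *Itgam* and *Itgax*). Another 7 encode beta subunits (*Itgb1*, *Itgb2* and *Itgb4* to *Itgb8*), and 12 encode proteins of the cytoplasmic side (*Tln1*, *Tln2*, *Vcl*, *Pxn*, *Zyx*, *Ptk2*, *Ilk*, *Parva*, *Fermt2*, *Fermt3*, *Actn1* and *Flna*).

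Integrins are paired receptors of 1 alpha and 1 beta subunit that hold a cell to collagen, fibronectin, laminin or to counter-receptors on other cells. A talin and a kindlin bind the tail of the beta subunit and switch the receptor on, and talin, vinculin, alpha-actinin and filamin tie it to actin. Osteoblasts and osteocytes use these contacts to sense load and matrix, osteoclasts use them to seal onto bone, and leukocytes use the beta 2 and alpha 4 integrins to leave the blood.

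The cells were bone marrow-derived stromal cells from Diversity Outbred (DO) mice, a heterogeneous stock descended from several inbred founder strains, grown under osteogenic conditions into mineralizing cultures (BMSC-OBs). Cells were freed with EDTA, collagenase and trypsin and loaded onto 10x Chromium in 16 pools, 13 of 5 mice and 3 of 4 mice, 77 mice in all, and each pool was sequenced in 2 runs. There was no treated or mutant group, so every comparison here is between classes of cells of the same pools. The mice of a pool differ in genotype and were not told apart here, and a cell enzymatically stripped from its matrix was the object measured.

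The first run held 107853 barcodes and 53990642 to 100777353 UMIs (unique molecular identifiers, 1 per captured transcript) per pool. After filters and removal of 5003 predicted doublets, 83906 cells were kept, 2507 to 7055 per pool. Before removal, 695 droplets held both *Xist* and Y-linked transcripts, at least 2 UMIs of each. Of these, 321 were among the predicted doublets, so some doublets may remain. Pairs of pools shared 2 to 20 barcodes. The median UMIs per cell ran from 2685 in pool 13 and 2903 in pool 1 to 14824 in pool 5. All pools stayed in all values. Without pool 13, the shallowest, 1 call was gained (*Itga9*, leukocyte side against mesenchymal side) and none was lost.

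Cells were gated by marker genes, none of which is among the 34. A mesenchymal side (59427 cells) and a leukocyte side (17133 cells) were set by 6 genes each, and 10941 cells lay within 1 log2 unit of a threshold between them. The side genes of the other side summed to 1.73 to 6 UMIs per 10,000 in the leukocyte side and 0.18 to 1.23 in the mesenchymal side. On the mesenchymal side the classes were LMP-like (late mesenchymal progenitor, 5755 cells), MALP-like (marrow adipogenic lineage progenitor, 8561), OBP-like (osteoblast progenitor, 7453), OB1-like (5175) and OB2-like (5137) for osteoblasts, and Ocy-like (osteocyte, 3727). Leukocyte classes were macrophage-like (6013), osteoclast-like (2010), granulocyte-like (1697), T-cell-like (461), B-cell-like (203) and basophil-like (253). Of 78 marker genes, 74 were highest in their own class, and 36666 cells met no class. A class of 639 cells was gated on *Ly6c2*, *Ccr2*, *Plac8*, *Ms4a4c* and *Chil3*. Of these 5 genes, 3 were highest in it. The class is left unnamed, and its cells count on the leukocyte side.

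Levels are UMIs per 10,000 UMIs of a class in a pool, given as mean ± SD over pools with at least 20 cells of the class (n = 16 unless stated). One transcript gives 1 tag whatever its length. Levels of single genes are compared between classes, while shares and sums over several genes count the tags of those genes. Fold changes and adjusted p-values are from edgeR's quasi-likelihood test with pool as a block and Benjamini-Hochberg adjustment over all genes tested. A gene called changed has an adjusted p of at most 0.05. Fitted values use TMM scaling, which sets the bulk of genes near 0. With totals alone as the scale, the median of all genes moved to -0.32 (OBP-like against LMP-like), 0.25 (MALP-like against LMP-like), -0.19 (OB1-like against OBP-like), 0.15 (Ocy-like against OB1-like), -0.55 (granulocyte-like against macrophage-like) and 0.21 (osteoclast-like against macrophage-like) on the log2 scale. In those comparisons levels carry that shift and the fitted fold changes do not. For the leukocyte side against the mesenchymal side the median was -0.136 with TMM and -0.0451 with totals alone. The scaling by totals alone was added after the data were seen.

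In 28 of the 34 genes the mean reached 0.1 UMIs per 10,000 in at least 1 class measured in 4 or more pools (heat map of class means). *Itgb1* encodes the common partner of most matrix-binding alpha subunits. Among the classes measured in 4 or more pools its mean was highest in the LMP-like class, at 4.70 ± 0.631. It stood at 3.71 ± 0.373 in MALP-like, 4.23 ± 0.461 in OBP-like and 3.17 ± 0.31 in Ocy-like cells. Its share of the UMIs of the 7 beta subunits was 84.0% ± 3.88 on the mesenchymal side and 53.2% ± 3.73 on the leukocyte side, and 30.8% ± 6.4 in granulocyte-like cells (n = 11). The 12 cytoplasmic genes summed to 17.3 ± 2.06 UMIs per 10,000 in LMP-like and 16.2 ± 1.83 in MALP-like cells. In OBP-like, OB1-like and Ocy-like cells their sums were 7.19 ± 0.87, 5.62 ± 1.2 and 6.14 ± 0.862. The lowest LMP-like pool (14.1) lay above the highest OBP-like pool (8.58). *Itga3*, *Itga7*, *Itga8*, *Itgb4*, *Itgb6* and *Itgb8* stayed under 0.1 in every class measured in 4 or more pools. In the basophil-like class, with 3 pools, *Itgb4* stood at 0.163 ± 0.225 (n = 3).

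**Figure D1:**
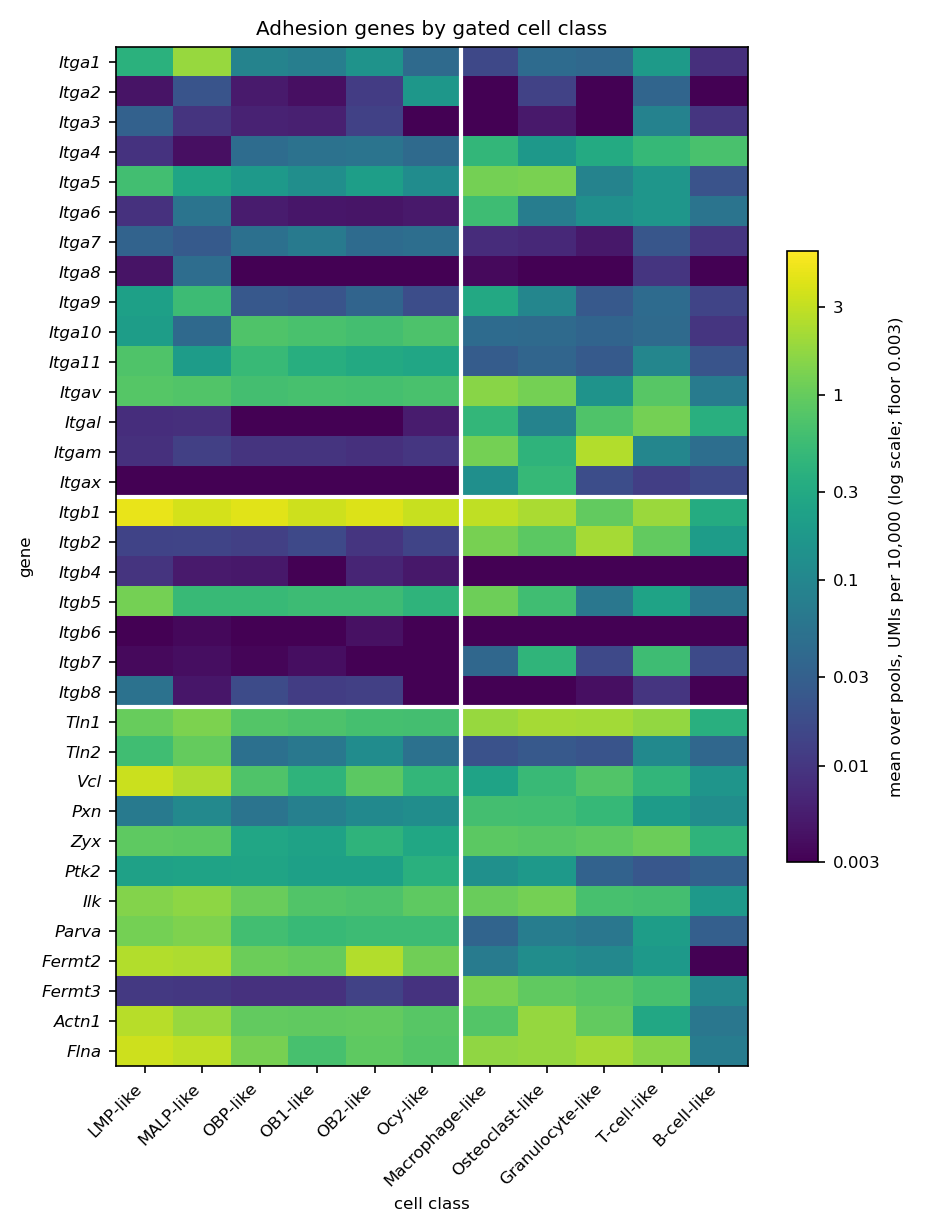
Mean level of the 34 genes (rows) in the gated classes (columns), in UMIs per 10,000 on a log color scale, averaged over pools with at least 20 cells of the class. *Itgb2*, *Itgam* and *Fermt3* are bright (high) in leukocyte columns and dark in mesenchymal ones, *Fermt2* and *Parva* the reverse, and *Tln2* is brightest in the MALP-like (0.993) and LMP-like (0.575) columns. White lines part alpha subunits, beta subunits and cytoplasmic genes, and the 2 sides.

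The leukocyte side was first set against the mesenchymal side, to ask which members separate the hematopoietic cells of these cultures from the stromal ones. Of 33 members tested, 13 were higher and 17 lower in leukocytes, and 3 passed in neither direction (*Itgb6* had too few counts for a test). Over all genes, 37.7% were called higher and 47.1% lower, so the count of members is close to that of genes at large. In 22 of the members tested the 16 pools of one side did not overlap those of the other, 11 in each direction, beside 15.9% of all genes higher and 18.1% lower without overlap. The median log2 fold change was -0.23 over the members and -0.14 over all genes.

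The genes of the beta 2 integrins were among the 13 higher. *Itgb2*, the beta subunit of the leukocyte integrins, ran from 0.825 (lowest pool) through 1.19 (median) to 1.45 UMIs per 10,000 on the leukocyte side, and from 0.00333 through 0.0118 to 0.0342 on the mesenchymal side. Every leukocyte value lay above every mesenchymal one (log2 fold change 6.47 ± 0.218 SE, adjusted p = 4.58e-16). Its partners moved alike, with log2 fold changes of 6.48 for *Itgam*, 6.40 for *Itgax* and 5.98 for *Itgal*. *Itgb7*, which pairs with alpha 4 in lymphocytes, was higher by 5.71, and *Itga4* by 3.40. *Itga6*, a laminin receptor subunit, was higher by 4.42. The fibronectin receptor subunit *Itga5* was higher as well, at 1.098 ± 0.294 against 0.267 ± 0.0736 (log2 fold change 1.94), with no overlap between the sides.

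The collagen receptor subunits *Itga1*, *Itga2*, *Itga10* and *Itga11* were among the 17 lower. *Itga11*, a receptor subunit for fibrillar collagen, was at 0.0270 ± 0.0153 in leukocytes and 0.406 ± 0.063 in mesenchymal cells (log2 fold change -4.06 ± 0.168 SE). *Itga10* fell by 3.85 and *Itga1* by 3.30 on the log2 scale, and both sets of pools were apart. *Itgb1* fell by 0.77. *Itgav*, the alpha subunit of the vitronectin and TGF-beta-activating receptors, was higher in leukocytes by 0.63. The values of *Itgb5* (0.758 ± 0.264 against 0.683 ± 0.192) and *Itga9* (0.165 ± 0.0399 against 0.145 ± 0.0557) overlapped and were not called. *Itga9* was called higher in leukocytes without pool 13 (0.23), in the second run (0.27), with a stricter gate (0.26) and with doublets kept (0.31).

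The kindlins divided the sides most sharply among the cytoplasmic genes. *Fermt3*, the kindlin of blood cells, ran from 0.885 through 1.02 to 1.76 in leukocytes and from 0.00313 through 0.00867 to 0.0336 in mesenchymal cells (log2 fold change 6.61 ± 0.211 SE, adjusted p = 2.13e-16). *Fermt2*, the kindlin of adherent cells, ran from 0.0454 through 0.0859 to 0.156 in leukocytes and from 1.48 through 1.64 to 2.34 in mesenchymal cells (-4.49 ± 0.131 SE, adjusted p = 6.7e-17). No pool came near the other side for either gene. *Parva*, an actin-binding partner of integrin-linked kinase, fell by 4.17 on the log2 scale. *Vcl*, which reinforces the link from talin to actin, fell by 2.04, and *Ptk2*, focal adhesion kinase, fell by 1.23. *Pxn* (paxillin, a scaffold) was higher in leukocytes by 2.53, *Tln1* by 1.04 and *Zyx* by 0.65. *Actn1* fell by 0.69. *Ilk* fell by 0.23, a call lost with doublets kept (-0.10) and with totals alone (-0.13), and *Flna* was level (1.80 ± 0.439 against 1.77 ± 0.508, log2 fold change -0.04, not called, with the sign turning to 0.05 with totals alone).

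**Figure D2:**
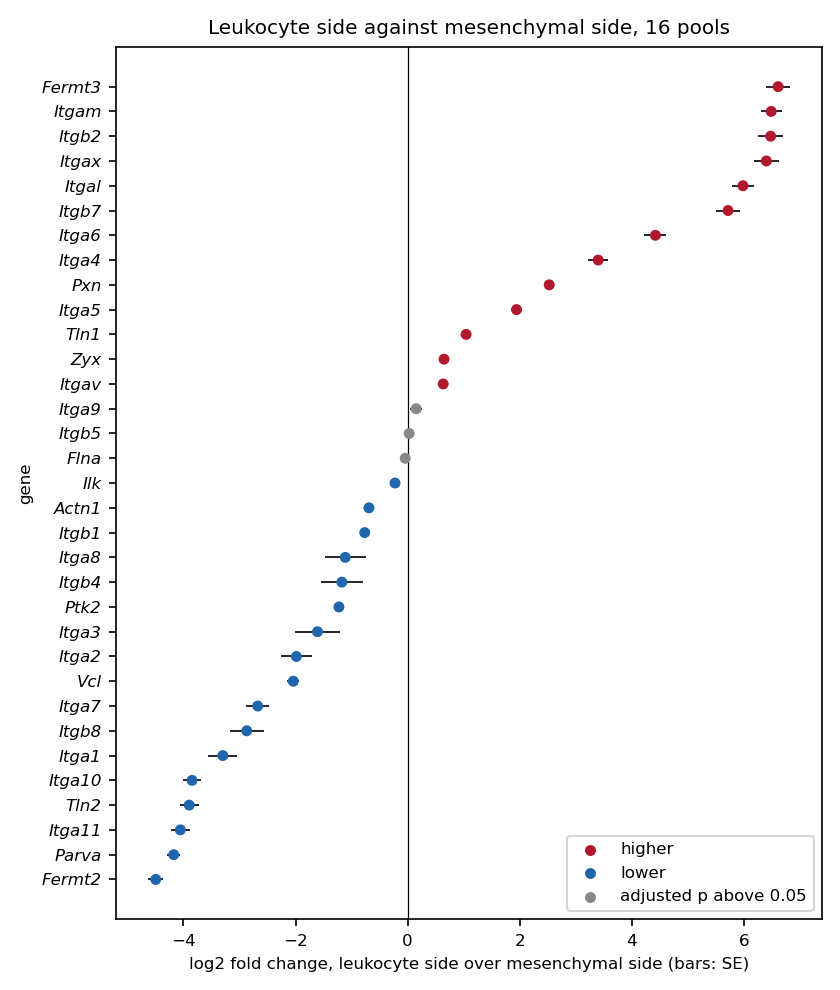
Log2 fold change of the 33 members tested (rows), leukocyte side over mesenchymal side, with bars of 1 standard error from the fit over 16 pools, and color for the call. *Fermt3* (6.61), *Itgam* (6.48) and *Itgb2* (6.47) stand at one end and *Fermt2* (-4.49), *Parva* (-4.17) and *Itga11* (-4.06) at the other, with *Flna*, *Itgb5* and *Itga9* near 0.

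A low level on one side may hold RNA released from the other. The reference genes *Col1a1*, *Col1a2*, *Sparc* and *Ibsp* were found in leukocytes at 2.97% to 5.35% of their mesenchymal level (medians over pools). *Fermt2* at 4.48% lay within that range, and *Itga11* (5.61%), *Parva* (5.76%), *Itga10* (6.75%), *Tln2* (7.35%) and *Itga1* (8.75%) lay above it. *Vcl* stood at 26.7% and *Ptk2* at 44.8%. In single pools these references ran from 1.56% to 11.4%. In macrophage-like cells *Parva* (3.91%), *Itga1* (3.7%) and *Fermt2* (4.32%) lay within the range of medians there, 2.92% to 5.34%. *Itga11* (6.27%), *Itga10* (8.49%) and *Tln2* (6.77%) lay above that range. In the other direction, *Lyz2*, *Tyrobp*, *Cd52* and *Ccl6* were found in mesenchymal cells at 0.388% to 0.829% of their leukocyte level. *Itgax* (0.889%), *Fermt3* (0.905%), *Itgam* (1.02%), *Itgb2* (1.07%), *Itgal* (1.18%) and *Itgb7* (1.46%) lay above it, as did *Itga6* (3.63%) and *Itga4* (7.9%). In LMP-like cells *Itgam* (0.767%) lay within the range there, 0.269% to 0.846%, *Itgax* (0.199%) under it and the others above. In MALP-like cells *Itga4* (0.909%), *Itgam* (1.22%) and *Fermt3* (0.698%) lay within 0.343% to 1.27%, *Itgax* (0%) under it and the others above. The source of the low levels was not tested. Median depth was 4480 UMIs per leukocyte and 13131 per mesenchymal cell.

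Of the 52 other adhesion genes, 49 were tested, and 24 were higher and 22 lower in leukocytes. The 3 with the largest rises were *Parvg* (6.56), the parvin of blood cells, *Lpxn* (6.35), a paxillin relative, and *Ptk2b* (4.72), the relative of focal adhesion kinase. The 3 with the largest falls were *Nexn* (-4.83), *Sorbs2* (-4.25) and *Tgfb1i1* (-4.19), the last another paxillin relative. Among 20 tested integrin ligands, 16 were lower and 2 higher in leukocytes, with *Fn1* (fibronectin) at 1.29 ± 0.816 against 11.1 ± 2.07 and *Icam1*, a counter-receptor of beta 2 integrins, at 1.74 ± 0.499 against 0.0822 ± 0.0333.

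Promoter sequence is shown for 4 members with opposite sides in this comparison. It is from RefSeq (GRCm38.p6), 250 bases before to 50 after the start, and 25 of the 34 members had an entry. *Itga6*, *Parva*, *Ptk2*, *Itga7*, *Tln2*, *Itgal*, *Itgb4*, *Itgb2* and *Pxn* had none in the promoter set used, while gene coordinates were at hand for all 34. Both strands were searched for the CArG box, the element bound by serum response factor, for GGGCGG, the core of the GC box, and for GAGGAA, a core bound by ETS factors such as PU.1. The 25 members had 28 promoters, and shares are counted per promoter. The CArG box was found in 3 of 28 (1 each of *Vcl*, *Fermt2* and *Itgb6*) and in 1.63% of all 32851 promoters. GAGGAA was found in 9 of 28 and in 28.3% of all promoters, and GGGCGG in 15 of 28 and in 35.7%. A match of letters does not show a bound site.

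The promoters of the mesenchymal-side genes *Vcl* (chr14:20929148-20929447, plus strand) and *Fermt2* (chr14:45530016-45530315, minus strand) have their CArG box in capitals, 227 and 204 bases before the start. Those of the leukocyte-side genes *Fermt3* (chr19:7019420-7019719, minus strand) and *Itgam* (chr7:128062390-128062689, plus strand) were marked for GAGGAA, which has 3 matches in *Itgam*, shown in capitals as GAGGAA or its reverse complement, and none in *Fermt3*.
Vcl: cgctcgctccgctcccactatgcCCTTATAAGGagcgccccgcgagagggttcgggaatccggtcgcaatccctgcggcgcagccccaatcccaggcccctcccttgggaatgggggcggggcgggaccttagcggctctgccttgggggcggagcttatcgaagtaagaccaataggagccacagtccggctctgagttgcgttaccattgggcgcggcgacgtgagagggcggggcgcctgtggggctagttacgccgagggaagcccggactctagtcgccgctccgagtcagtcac
Fermt2: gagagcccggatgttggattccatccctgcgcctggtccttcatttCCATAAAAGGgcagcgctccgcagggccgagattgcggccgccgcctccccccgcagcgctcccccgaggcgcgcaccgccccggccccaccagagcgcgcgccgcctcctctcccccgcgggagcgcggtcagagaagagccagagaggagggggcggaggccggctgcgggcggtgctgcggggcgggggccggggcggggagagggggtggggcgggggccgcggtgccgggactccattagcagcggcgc
Fermt3: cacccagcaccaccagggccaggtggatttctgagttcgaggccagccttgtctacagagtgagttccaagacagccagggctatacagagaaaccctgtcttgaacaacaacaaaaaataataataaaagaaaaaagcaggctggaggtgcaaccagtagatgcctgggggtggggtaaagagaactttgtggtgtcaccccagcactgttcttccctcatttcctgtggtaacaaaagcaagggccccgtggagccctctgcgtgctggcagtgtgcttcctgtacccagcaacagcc
Itgam: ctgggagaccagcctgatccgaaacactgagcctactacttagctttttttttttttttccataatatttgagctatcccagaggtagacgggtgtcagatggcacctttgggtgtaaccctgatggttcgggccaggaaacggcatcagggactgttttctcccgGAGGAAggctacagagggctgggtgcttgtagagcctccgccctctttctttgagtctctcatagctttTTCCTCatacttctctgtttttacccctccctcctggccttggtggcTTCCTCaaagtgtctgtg

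The OBP-like class was next set against the LMP-like class, to follow the members from the progenitor into the osteoblast lineage. Of 23 members tested, 15 were lower and 5 higher in OBP-like cells, beside 37.5% of all genes lower and 36.9% higher. The median was -0.87 over the members and -0.01 over all genes. In 13 of the members tested the pools did not overlap, 11 lower and 2 higher, beside 9.50% and 4.30% of all genes. With totals alone, 19 were lower and 3 higher, and the share of higher calls over all genes went from 49.6% to 23.6%. The remaining 11 members had too few counts for a test.

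Of the genes that reach actin, *Vcl*, *Zyx*, *Actn1* and *Flna* were lower, and *Tln1* was not called. *Vcl* ran from 0.552 through 0.712 to 0.945 in OBP-like and from 2.62 through 3.18 to 4.40 UMIs per 10,000 in LMP-like pools (-1.87 ± 0.0552 SE, adjusted p = 4.06e-18). *Zyx*, a LIM protein at the ends of stress fibers, ran from 0.188 through 0.265 to 0.399 and from 0.643 through 0.896 to 1.27 (-1.45 ± 0.0475 SE). *Actn1*, the actin cross-linker alpha-actinin, fell by 1.14 and *Flna*, filamin A, by 1.07 on the log2 scale. The pools were apart in all 4 genes. *Fermt2* fell by 0.87 and *Parva* by 0.72. *Ilk* fell by 0.14, a call lost with a stricter gate (-0.10) and without the pool block (-0.15). *Ptk2* was higher by 0.45, a call lost with totals alone (0.14). *Pxn* was not called (-0.03), and with totals alone it was called lower (-0.33), while its sign turned in the second run (0.18).

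Among the alpha subunits tested, *Itga4*, *Itga7* and *Itga10* were higher and *Itga1*, *Itga3*, *Itga5*, *Itga9* and *Itga11* lower. *Itga10*, a collagen receptor subunit first known from cartilage, ran from 0.516 through 0.738 to 0.945 in OBP-like and from 0.0904 through 0.208 to 0.3202 in LMP-like pools (2.19 ± 0.0874 SE, adjusted p = 5.53e-16). *Itga4* rose from 0.00919 ± 0.00505 to 0.0442 ± 0.00967 (2.52 ± 0.151 SE), low in both. *Itga9*, its relative that binds tenascin and VCAM1, went the other way, from 0.227 ± 0.0549 to 0.0247 ± 0.0102 (-2.88 ± 0.104 SE). None of these 3 overlapped between the classes. *Itga4* had too few counts for a test in MALP-like against LMP-like cells, so it was tested here through its OBP-like counts. *Itga3*, lower without overlap at 0.0062 against 0.0322 (-2.19), had too few counts for a test in OB1-like against OBP-like cells. It was thus tested here through its LMP-like counts. *Itga1* fell by 1.84, *Itga5* by 1.42 and *Itga11* by 0.25. *Itgb5*, a partner of alpha v, fell by 1.02. *Itgb1* was called higher by 0.16, while its level was lower in OBP-like cells in 11 of 16 pools (4.23 against 4.70). It was called lower with totals alone (-0.15), and the call was lost with contractile genes in the LMP-like gate (0.11) and without the pool block (0.15). *Itgav* was not called (-0.08), with its level lower in 16 of 16 pools (0.624 against 0.818), and was called lower with totals alone (-0.39) and with a stricter gate (-0.14).

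Contractile genes moved beside them, and all 6 tested (*Acta2*, *Tagln*, *Cnn1*, *Myl9*, *Tpm1* and *Tpm2*) were lower in OBP-like cells. Their summed level was 71.1 ± 12.5 in LMP-like, 44.6 ± 9.59 in MALP-like and 11.4 ± 1.49 in OBP-like cells. When contractile genes were added to the LMP-like gate, *Vcl* was lower by -2.06 and *Tln2* by -3.24. Their part in the result was not tested. Of 45 other adhesion genes tested, 35 were lower and 5 higher, led by *Kank1* (2.51), *Sorbs2* (0.66) and *Bcar1* (0.44) upward and *Lims2* (-2.93) and *Tns1* (-2.37) downward. Integrin ligands were lower in 13 of 19 and higher in 3, with *Fn1* lower at 7.78 ± 1.83 against 20.3 ± 4.31. The 3 higher were *Col1a1* (2.60) and *Col1a2* (2.45), both without overlap of pools, and *Spp1* (osteopontin). The last was at 202.1 ± 71.4 against 126.4 ± 50.9, with overlap.

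The MALP-like class, on the adipogenic branch, was compared with the same LMP-like cells. Both comparisons share the LMP-like pools, so their values are given side by side and not as independent results. Of 23 members tested, 6 were higher and 15 lower, beside 33.3% and 35.6% of all genes. The median was -0.37 over the members and -0.01 over all genes. In 6 of the members tested the pools did not overlap, 3 higher and 3 lower, beside 7.80% and 2.36% of all genes. With totals alone, 8 were higher and 12 lower, and the share of higher calls over all genes went from 48.4% to 74.7%.

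*Itga1*, whose product binds collagen IV of basement membrane, was higher in 16 of 16 pools. It ran from 1.29 through 1.82 to 2.69 in MALP-like and from 0.265 through 0.405 to 0.513 in LMP-like pools (2.00 ± 0.0725 SE, adjusted p = 4.86e-16). *Itga9* was higher by 1.06 and *Itga6* by 2.33, the latter from 0.00896 to 0.0565. These 3 did not overlap between the classes. *Itga6* had too few counts for a test in OBP-like against LMP-like cells, so it was tested here through its MALP-like counts. Of the other collagen receptor subunits, *Itga11* was lower at 0.198 ± 0.0579 against 0.739 ± 0.102 (-2.16), and *Itga10* at 0.0403 ± 0.0305 against 0.206 ± 0.0676 (-2.63). *Itga2* had too few counts for a test and stood at 0.0216 against 0.00454, with the MALP-like value above in 16 of 16 pools. *Itga5* fell by 1.49, *Itgb5* by 1.56, *Itgb8* by 3.68 and *Itgb1* by 0.59 on the log2 scale. *Itga3* fell by 1.98, *Itga7* by 0.65 and *Itgav* by 0.37. *Itgb8* and *Itga3* had too few counts for a test in OB1-like against OBP-like cells, so they were tested here through their LMP-like counts. The lack of overlap of *Itgb8* thus rests on its LMP-like level. *Itga10*, *Itga1* and *Itga9* thus had opposite directions in the OBP-like and MALP-like classes, given here as values without a test of the difference. So did *Itga7* (0.87 and -0.65), *Tln2* (-3.22 and 0.54), *Itgb1* (0.16 and -0.59) and *Ptk2* (0.45 and -0.18). With totals alone the sign turned for *Itgb1* in OBP-like (-0.15) and for *Ptk2* in MALP-like cells (0.08).

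Of 11 cytoplasmic genes tested, 6 were lower and 3 higher in MALP-like cells. *Vcl* was at 2.43 ± 0.243 against 3.29 ± 0.568 (-0.68), *Actn1* at 1.88 ± 0.45 against 2.66 ± 0.571 (-0.77) and *Flna* at 2.93 ± 0.614 against 3.32 ± 0.569 (-0.45). *Fermt2* fell by 0.34 and *Zyx* by 0.31, both calls lost with totals alone (-0.07 and -0.05). *Pxn* was higher by 0.38, and *Ilk* and *Parva* were not called. Both were called lower with contractile genes in the LMP-like gate (-0.20 and -0.18), and both were called higher with totals alone (0.19 and 0.17). *Ptk2* was called lower at -0.18, and its sign turned to 0.08 with totals alone. That call was also lost without the pool block (-0.18), with DESeq2 (-0.16), with no filter on low counts (-0.16), in the second run (-0.08) and with the contractile gate (-0.14). Contractile genes were lower in 5 of 6. Of 47 other adhesion genes tested, 24 were lower and 10 higher, with *Apbb1ip* (1.90), *Sorbs2* (1.00) and *Tns2* (0.85) highest and *Flnc* (-2.27), *Parvb* (-1.42) and *Csrp1* (-1.39) lowest. Of 19 integrin ligands tested, 11 were lower and 6 higher. The falls were led by *Postn* (-4.60), *Col1a1* (-2.47) and *Thbs1* (-2.46). Among the rises, *Vcam1*, which alpha 4 and alpha 9 integrins bind, was at 8.34 ± 2.04 against 0.404 ± 0.125 (4.11). *Col4a1* was at 2.97 ± 0.661 against 0.646 ± 0.204 (1.98).

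**Figure D3:**
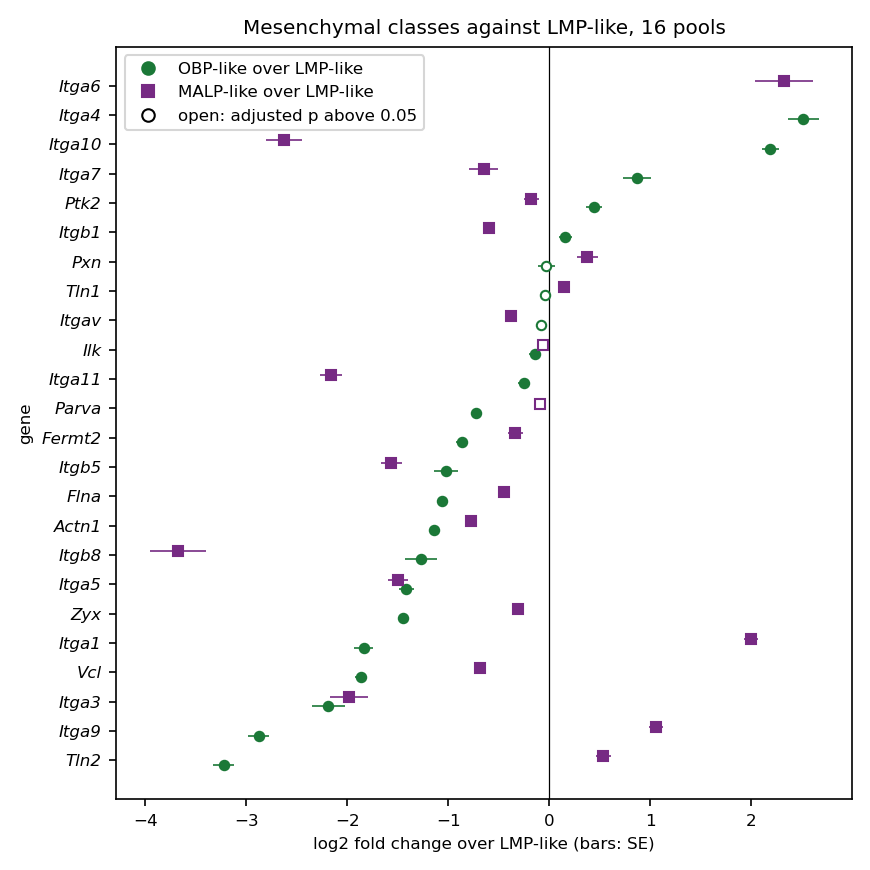
Log2 fold change of each member tested in OBP-like cells (circles) and MALP-like cells (squares), both against LMP-like cells, with bars of 1 standard error over 16 pools and open symbols for an adjusted p above 0.05. *Itga10* points up in OBP-like (2.19) and down in MALP-like cells (-2.63), and *Itga1*, *Itga9* and *Tln2* the reverse.

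*Tln1* and *Tln2* encode the talins, which open integrins and carry force to actin. *Tln1* is near universal, and *Tln2* is best known from muscle and brain. *Tln1* (chr4:43531519-43562691, minus strand, GRCm38) was found in every class. Its level was 0.623 ± 0.117 UMIs per 10,000 in Ocy-like and 0.794 ± 0.0909 in OBP-like cells, 1.01 ± 0.142 in LMP-like, 1.33 ± 0.153 in MALP-like, 1.84 ± 0.199 in macrophage-like and 2.13 ± 0.312 in osteoclast-like cells. *Tln2* (chr9:67217087-67559703, minus strand) was concentrated in 2 classes. It ran from 0.333 through 0.578 to 0.753 in LMP-like, from 0.711 through 1.02 to 1.20 in MALP-like and from 0.0376 through 0.0508 to 0.0641 in OBP-like pools. In OB2-like cells its level was 0.121 (n = 14), and in OB1-like and Ocy-like cells 0.0626 ± 0.0324 and 0.0518 ± 0.0232. On the leukocyte side it was 0.0222 ± 0.0101.

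*Tln2* was lower in OBP-like than LMP-like cells in all 16 pools (-3.22 ± 0.103 SE, adjusted p = 1.37e-17), while *Tln1* was not called (-0.04 ± 0.0364 SE, adjusted p = 0.373). *Tln1* was called lower there with totals alone (-0.35) and with contractile genes in the LMP-like gate (-0.18), against -3.24 for *Tln2* in that gate. In MALP-like cells *Tln2* was higher in all 16 pools, with overlapping ranges (0.54 ± 0.0712 SE, adjusted p = 7.51e-07). *Tln1* was higher by 0.14 there, a call that was lost when contractile genes were added to the LMP-like gate (-0.01, adjusted p = 0.798) and in the second run (0.10).

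The share of talin UMIs from *Tln2* does not depend on scaling between libraries. It was 42.6% ± 3.9 in MALP-like, 36.1% ± 4.87 in LMP-like, 15.9% ± 4.75 in OB2-like (n = 14), 7.93% ± 3.09 in OB1-like, 7.8% ± 3.27 in Ocy-like and 5.91% ± 0.994 in OBP-like cells. LMP-like pools ran from 28.2% (pool 18) to 43.9% (pool 3) and MALP-like pools from 34.9% to 48.5%, with pool 18 lowest and pool 3 highest in both. OBP-like pools ran from 4.53% to 7.99%, under every LMP-like pool. The ranges of OB1-like, Ocy-like and OBP-like pools overlapped. In macrophage-like, osteoclast-like and granulocyte-like cells (n = 11 for the last) the share was 1.13% ± 0.786, 1.19% ± 1.73 and 0.919% ± 1.55.

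Differences of the share were taken within pools and tested with a two-sided exact sign-flip permutation test, adjusted over 5 comparisons. The share was lower in OBP-like than in LMP-like cells in 16 of 16 pools, by -30.2 percentage points (SD 5.36, exact adjusted p = 3.81e-05). OB1-like and Ocy-like cells differed from LMP-like cells by -28.1 and -28.3 points and the leukocyte side from the mesenchymal side by -23.9, each in 16 of 16 pools with the same exact adjusted p. The raw p of 3.05e-05 is the smallest that 16 pools allow. MALP-like cells were higher by 6.57 points (SD 4.53) in 15 of 16 pools (exact adjusted p = 9.16e-05). The OBP-like, OB1-like, Ocy-like and MALP-like comparisons share the LMP-like pools.

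**Figure D4:**
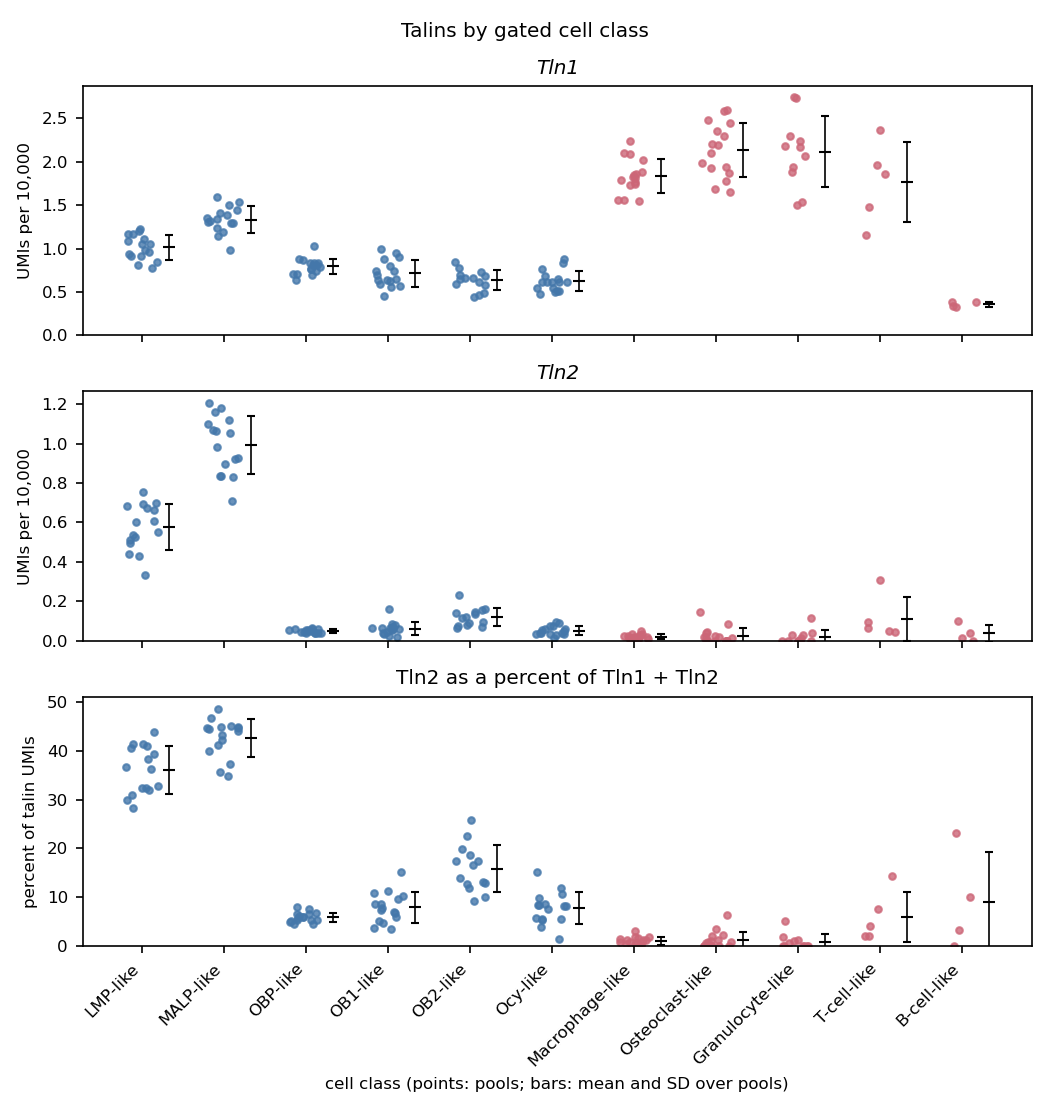
Levels of *Tln1* and *Tln2* and the share of talin UMIs from *Tln2* (percent) by class, 1 point per pool, with bars for the mean and SD. The *Tln2* share is 28.2% to 43.9% in LMP-like and 34.9% to 48.5% in MALP-like pools and 4.53% to 7.99% in OBP-like pools, while *Tln1* is present throughout.

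OB1-like cells were compared with OBP-like cells, and of 21 members tested 7 were higher and 6 lower, beside 26.4% and 27.7% of all genes. The medians were 0.01 over the members and -0.01 over all genes, and 0 members had pools without overlap, beside 0.370% of all genes higher and 0.804% lower without overlap. With totals alone, 2 were higher and 11 lower (higher calls over all genes went from 48.8% to 22.3%). *Flna* fell from 1.28 ± 0.236 to 0.661 ± 0.324 (-0.84 ± 0.0842 SE) and *Vcl* from 0.732 ± 0.137 to 0.418 ± 0.161 (-0.64 ± 0.0789 SE), each lower in 16 of 16 pools. *Itga5* fell by 0.45, *Itga11* by 0.37, *Ilk* by 0.27 and *Itgb1* by 0.13. *Pxn* rose by 0.73, *Itga7* by 0.63, *Tln2* by 0.49, *Itga4* by 0.44, *Itgb5* by 0.31, *Itgav* by 0.25 and *Actn1* by 0.12, the last turning to -0.06 with totals alone. With totals alone the calls of *Itgb5*, *Itga4*, *Itgav* and *Tln2* were lost (0.13, 0.25, 0.07 and 0.31). *Zyx*, *Parva*, *Tln1*, *Ptk2* and *Fermt2*, not called with TMM, were called lower with totals alone (-0.21, -0.25, -0.14, -0.16 and -0.18). Without the pool block the calls of *Itgb1*, *Itgb5* and *Actn1* were lost (-0.13, 0.34 and 0.14), that of *Actn1* also with no filter on low counts (0.08). Contractile genes were lower in 5 of 6. Of 44 other adhesion genes tested, 10 were higher and 17 lower, with *Tns1* (0.75), *Evl* (0.64) and *Nexn* (0.60) highest and *Tgfb1i1* (-1.41), *Fblim1* (-0.85) and *Apbb1ip* (-0.82) lowest.

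Ocy-like cells were compared with OB1-like cells. Of 21 members tested, 3 were higher and 9 lower, beside 22.2% and 24.4% of all genes, with medians of -0.11 over the members and -0.000593 over all genes. With totals alone the counts were 7 and 7 (higher calls over all genes went from 47.6% to 75.5%). *Itga2*, the alpha subunit of a collagen receptor best known on platelets and epithelium, had the largest fold change of the 21 members. It ran from 0.0787 through 0.174 to 0.305 in Ocy-like and from 0 through 0.00318 to 0.0145 in OB1-like pools (4.77 ± 0.225 SE, adjusted p = 8.67e-15). It was the 1 member tested whose pools did not overlap, beside 0.954% of all genes higher and 0.113% lower without overlap. Its counts passed the low-count filter through the Ocy-like class alone, and in OB1-like against OBP-like cells it had too few for a test. Its call, its rank and its lack of overlap thus rest on its high level in Ocy-like cells. In LMP-like, MALP-like and OBP-like cells its means were 0.0045, 0.0216 and 0.0052. *Ptk2* was higher in 16 of 16 pools (0.376 ± 0.0782 against 0.227 ± 0.0361, log2 fold change 0.54), and *Pxn* was higher by 0.45. *Itga1* fell by 1.01, *Itga7* by 0.72, *Itgb5* by 0.55, *Itga11* by 0.52, *Tln2* by 0.44, *Itga4* by 0.41, *Tln1* by 0.36, *Actn1* by 0.34 and *Itgb1* by 0.25. The calls of *Itga4* and *Tln2* were lost with totals alone (-0.27 and -0.29) and without the pool block (-0.42 and -0.44). *Flna* was not called (0.15), and was called higher with totals alone (0.30), with no filter on low counts (0.16), in the second run (0.17) and with doublets kept (0.16). *Zyx*, *Ilk* and *Fermt2* were called higher with totals alone (0.23, 0.21 and 0.23), and *Itgav* was called lower in the second run (-0.16). Contractile genes were lower in 5 of 5. Of 41 other adhesion genes tested, 14 were higher and 6 lower, with *Itgb3* (1.22), the partner of alpha v in the vitronectin receptor, *Fblim1* (1.18) and *Arhgef7* (0.83) highest and *Flnc* (-1.15), *Tns3* (-1.09) and *Pdlim5* (-0.52) lowest.

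Within the leukocytes, granulocyte-like cells were compared with macrophage-like cells in the 11 pools with both. Of 18 members tested, 9 were higher and 6 lower, beside 34.3% and 36.3% of all genes, with medians of 0.07 and -0.03. With totals alone, 6 were higher and 10 lower (higher calls over all genes went from 48.6% to 24%). In 6 of the members tested the pools did not overlap, 1 higher and 5 lower, beside 7.20% and 25.6% of all genes. Of the beta 2 integrin genes *Itgam*, *Itgb2* and *Itgal* were higher, and *Itgax* had too few counts for a test and stood at 0.0181 against 0.1232, lower in 10 of 11 pools. *Itgam*, the alpha subunit of Mac-1, ran from 1.77 through 2.39 to 3.27 in granulocyte-like and from 0.943 through 1.21 to 1.64 in macrophage-like pools (1.53 ± 0.13 SE, adjusted p = 1.59e-09). *Itgb2* was higher by 1.30 and *Itgal* by 1.12. Of the adaptors *Vcl* was higher by 2.13, *Flna* by 0.96, *Actn1* by 0.90 and *Tln1* by 0.74. *Zyx* and *Pxn* were called higher (0.49 and 0.25). The level of *Pxn* was lower in 10 of 11 pools (0.494 against 0.606), and with totals alone it was called lower (-0.28) and *Zyx* was not called (-0.03). The *Zyx* call was lost as well with no filter on low counts (0.29). That of *Pxn* was lost with no filter (0.06), with DESeq2 (0.15), without the pool block (0.27), in the second run (0.25) and with doublets kept (0.22). The *Tln1* call was lost with totals alone (0.22). Of 4 contractile genes tested, *Acta2* (1.37), *Myl9* (1.44) and *Tpm2* (1.19) were called higher and 0 lower, with overlapping ranges of pools. Their levels were higher in 8, 6 and 6 of 11 pools. They stood at 0.704, 0.278 and 0.364 in granulocyte-like cells and at 7.99, 3.15 and 4.02 on the mesenchymal side. The reference gene *Col1a1* stood at a median of 6.04% of its mesenchymal level in granulocyte-like cells. Contractile genes summed to 2.27 ± 2.13 in granulocyte-like (n = 11) and 1.52 ± 0.315 in macrophage-like cells. Neither their part in the result nor that of RNA released from stromal cells was tested.

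*Itga5* ran from 0.0214 through 0.0897 to 0.188 in granulocyte-like and from 0.916 through 1.28 to 1.55 in macrophage-like pools (-3.30 ± 0.178 SE, adjusted p = 1.27e-12). *Itga9* fell by 3.47, *Itgb5* by 3.15, *Itgav* by 2.84, *Itga6* by 1.81 and *Itgb1* by 1.06 in granulocyte-like cells. All of these except *Itga6* had separate pools. *Itga4* (0.313 ± 0.132 against 0.468 ± 0.128, n = 11) and *Fermt3* (0.824 ± 0.22 against 1.26 ± 0.13, n = 11) were not called with TMM and were called lower with totals alone (-0.64 and -0.67), the latter also with no filter on low counts (-0.34). *Ilk* (0.663 ± 0.173 against 1.07 ± 0.202, n = 11) was not called (-0.21). It was called lower with DESeq2 (-0.32), with no filter (-0.40), with totals alone (-0.73) and with at least 50 cells (-0.25). Of 31 other adhesion genes tested, 10 were higher and 15 lower, with *Vasp* (2.64), *Parvg* (2.63) and *Pdlim7* (1.35) highest and *Tns1* (-4.64), *Lpxn* (-4.59) and *Parvb* (-3.83) lowest. Among ligands 7 of 14 were higher and 4 lower, with *Thbs1* (thrombospondin 1) at 15.5 ± 5.8 against 1.05 ± 0.422 (n = 11). The others called higher were *Col1a1* (0.50), *Tnc* (0.96), *Thbs2* (0.78), *Cyr61* (0.86), *Ctgf* (0.69) and *Vcam1* (0.71). Their ranges of pools overlapped. Of 11 pools, levels were higher in 5 for *Col1a1* (16.1 ± 7.78 against 15.8 ± 7.42) and in 5 each for *Cyr61* and *Ctgf*. They were higher in 6 for *Tnc*, 4 for *Thbs2* and 7 for *Vcam1*. *Col1a1* is a reference gene for released RNA, at medians of 6.04% and 5.34% of its mesenchymal level in granulocyte-like and macrophage-like cells. *Tnc*, *Thbs2*, *Cyr61* and *Ctgf* stood at 0.492, 0.171, 0.461 and 0.208, and on the mesenchymal side at 4.81, 2.07, 4.735 and 2.94. The part of released RNA was not tested.

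Osteoclast-like cells were compared with macrophage-like cells, a related lineage. Of 21 members tested, 4 were higher and 12 lower, beside 29.6% and 28.2% of all genes, with medians of -0.29 and 0.03. With totals alone, 6 were higher and 10 lower (higher calls over all genes went from 51.2% to 70.5%). In 5 of the members tested the pools were apart, 1 higher and 4 lower, beside 1.49% and 1.73% of all genes. *Actn1* was higher in every pool, from 1.14 through 1.71 to 2.62 against 0.464 through 0.821 to 1.12 (1.05 ± 0.0801 SE, adjusted p = 1.83e-11). *Vcl* was higher by 0.92 in 16 of 16 pools. Contractile genes were higher in 2 of 5 tested and lower in 0 (*Tpm1* 0.70 and *Tpm2* 0.68), with a summed level of 2.74 ± 1.8 against 1.52 ± 0.315, and their part in the result was not tested. *Itgb7* was higher in 16 of 16 pools, at 0.431 ± 0.203 against 0.0380 ± 0.0351 (3.29), and *Itgax* by 1.69 in 14 of 16. Neither gene was tested in granulocyte-like against macrophage-like cells, so both were tested here through their osteoclast-like counts. Their calls thus rest on their high level in osteoclast-like cells.

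*Itgam*, *Itgal*, *Itgb2* and *Itga4* fell in osteoclast-like cells. *Itgam* ran from 0.119 through 0.430 to 0.893 against 0.943 through 1.21 to 1.71 (-1.68 ± 0.14 SE). *Itga6* fell by 2.64, *Itgal* by 2.43, *Itga9* by 1.64, *Itga4* by 1.42, *Itgb5* by 1.12, *Itgb2* by 0.66, *Fermt3* by 0.65, *Itgb1* by 0.53 and *Itgav* by 0.48. *Itgam*, *Itga6*, *Itgal* and *Itga9* had separate pools. *Pxn* and *Zyx* were called lower (-0.22 and -0.29), and both calls were lost with totals alone (-0.04 and -0.12) and without the pool block (-0.22 and -0.30). That of *Pxn* was also lost with DESeq2 (-0.23) and with at least 50 cells (-0.22). *Flna*, *Ptk2* and *Itga5* were not called, and *Tln1* and *Ilk* were called higher only with totals alone (0.21 and 0.24). *Itgb3*, the beta subunit of the osteoclast vitronectin receptor and no member, had too few counts for a test and stood at 0.308 ± 0.273 against 0.0108 ± 0.00885. Of 31 other adhesion genes tested, 7 were higher and 8 lower, with *Src* (1.45), *Fblim1* (1.14) and *Tes* (0.94) highest and *Sorbs3* (-1.53), *Tns1* (-1.50) and *Apbb1ip* (-0.88) lowest.

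**Figure D5:**
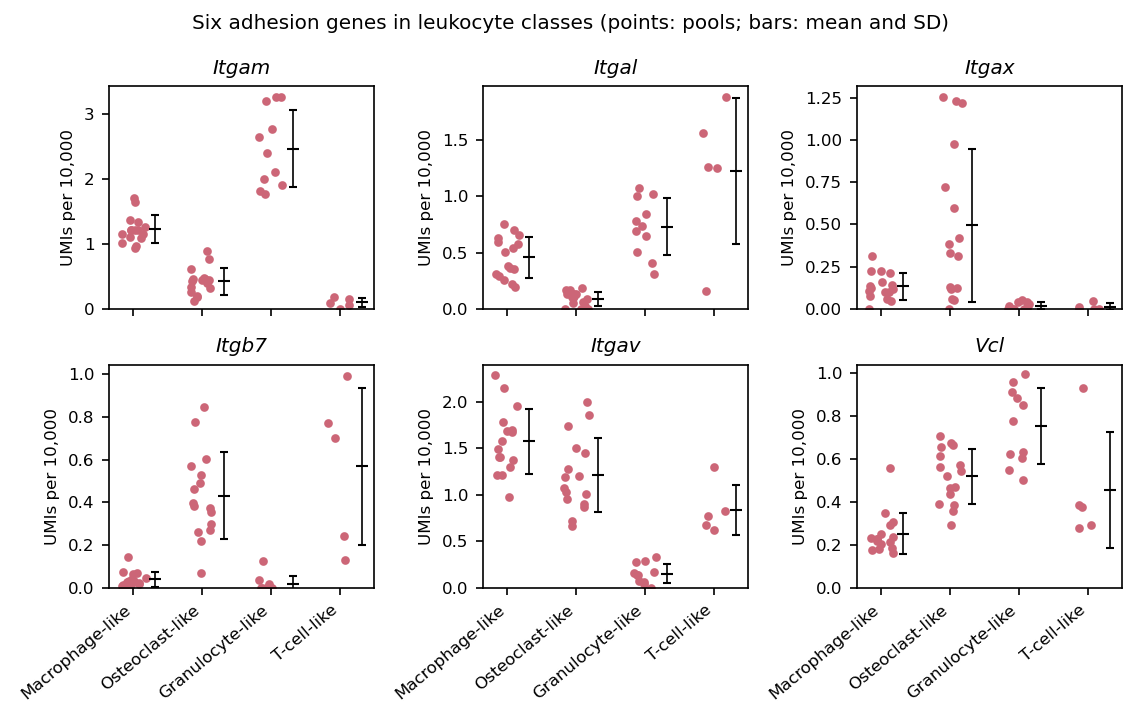
Level of *Itgam*, *Itgal*, *Itgax*, *Itgb7*, *Itgav* and *Vcl* in macrophage-like, osteoclast-like, granulocyte-like and T-cell-like cells, in UMIs per 10,000, 1 point per pool, with bars for the mean and SD. *Itgam* is highest in granulocyte-like pools (median 2.39), *Itgb7* is near 0 in macrophage-like pools (mean 0.0380) and higher in osteoclast-like ones (mean 0.431), and *Itgav* is lowest in granulocyte-like pools (mean 0.151).

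The lymphocyte and basophil classes were measured in few pools and are described without a test. *Itgal*, the alpha subunit of LFA-1, was at 1.23 ± 0.652 in T-cell-like cells (n = 5), where 4 pools lay high and pool 18, with 23 cells, lay low at 0.155. *Itga4* was at 0.487 ± 0.309 there and *Itgb7* at 0.568 ± 0.367 (n = 5). B-cell-like cells (n = 4) had *Itga4* at 0.682 ± 0.143 and *Itgal* at 0.365 ± 0.0799, with *Itgb1* at 0.319 ± 0.0656, *Tln1* at 0.360 ± 0.0267 and *Fermt3* at 0.100 ± 0.0472. The 12 cytoplasmic genes summed to 1.58 ± 0.229 in B-cell-like and to 7.13 ± 1.19 in T-cell-like cells. In basophil-like cells (n = 3) *Itgb1* was at 4.33 ± 2.54, *Itgb7* at 1.24 ± 0.862 and *Tln1* at 3.15 ± 0.946.

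The spread between pools is given as a description. *Itgb5* had a coefficient of variation over pools of 30.5% in LMP-like, 40.1% in OBP-like, 44.6% in OB1-like and 53.3% in Ocy-like cells. Pool 2 was highest for *Itgb5* in OBP-like (1.03) and OB1-like cells (1.23). *Actn1* and *Flna* were each highest in pool 2 in LMP-like, MALP-like, OBP-like, OB1-like and Ocy-like cells, and *Itgb1* was highest in pool 9 in the same 5 classes. Pools differ in mice, culture and library, which cannot be told apart here.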

How the data were processed

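The deposited files are UMI count matrices, 1 per pool and run, made by the authors with Cell Ranger 5.0.0 (submitters' processing notes) on GRCm38 and holding unnormalized counts. The annotation release is not given in the sources used here. The first run of each of the 16 pools was analysed. The second run re-sequenced the same droplets and served as an alternative only.

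Barcodes with 400 to 6200 genes, at most 10% mitochondrial, 20% *Rpl* and 15% *Rps* counts were kept. Doublets were called against simulated pairs (2 per droplet) in 30 components of 2000 variable genes, at 0.8% per 1000 barcodes. Sides were gated on a log2 ratio of at least 2 between 6 leukocyte and 6 mesenchymal genes. Classes needed a mean marker score (z) of at least 0.5 and a margin of 0.25. These classes were rebuilt from markers and need not match the study's clusters.

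Counts were summed per pool and class (at least 20 cells) and tested with edgeR 4.0.16 in R 4.3.3 (filterByExpr, TMM, quasi-likelihood F test, pool as block, Benjamini-Hochberg over all genes). Standard errors were derived from each log2 fold change and its F statistic. Talin shares were tested by exact sign flips in scipy 1.17.1. Scripts were tested on simulated data. Pairs come from the same pool, and hence the same mice. The lowest same-pool correlation of deviations was 0.113 to 0.245 in 6 comparisons and 0.00931 for granulocyte-like against macrophage-like.

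The members and the lists were chosen with earlier results of these data known. All 34 members are accounted for, and those reaching 0.1 UMIs per 10,000 in a class are given with values. From the 52 other adhesion genes, the 3 largest called changes each way are named, except 1 result that is not reported here. Ligand genes were named after their values were seen. Alternatives were DESeq2 1.42.0, no low-count filter, no replicate block, totals without TMM, pool 13 left out, at least 50 cells, the second run, a margin of 0.5, doublets kept, and contractile genes in the LMP-like gate. Pool samples are not separate animals, and p-values measure how steady the difference between classes within a pool was across pools. Intervals cover counting error only.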

Additional observations from a re-analysis of the deposited data

Results flagged for a closer look

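In groups of 4 to 10 pools, a pool was marked when its gap to the nearest other pool was large for the range of the group by Dixon's 95% criterion. Of 31 groups tested, 6 were marked, and chance marks about 1 in 20. In T-cell-like cells (n = 5) the marked pool was pool 18 each time, at 0.618 UMIs per 10,000 for *Itga5* (0.0329 to 0.0752 in the other 4 pools), 0.773 for *Itgb5* (0.0216 to 0.238), 0.309 for *Tln2* (0.0432 to 0.0966), 0.927 for *Vcl* (0.279 to 0.386) and 0.618 for *Parva* (0.0324 to 0.193). These values rest on 23 cells and on 4, 5, 2, 6 and 4 UMIs. *Col1a1* stood at 79.3 UMIs per 10,000 in the T-cell-like cells of pool 18 and at 7.58 to 19.8 in the other pools. Its part in the marked values was not tested.

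In B-cell-like cells (n = 4) *Ilk* was at 0.264 in pool 4 and at 0.153 to 0.156 in the other 3 pools, resting on 22 cells and 8 UMIs.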

How the results depend on the processing

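Of 130 recounts of members called, 124 stayed within 1.5 times the count reported. Of 1480 recomputed values of 160 results, each for a member in 1 comparison, 1357 kept their direction and their side of the threshold. All 30 recomputed talin shares did so as well. With totals in place of TMM, an alternative chosen after seeing the data, the members higher were 3 (OBP-like against LMP-like), 2 (OB1-like against OBP-like) and 7 (Ocy-like against OB1-like), and those lower were 11 (OB1-like against OBP-like) and 10 (granulocyte-like against macrophage-like). The counts that follow have no share over all genes beside them. They are set against the reported counts only and not against genes at large. Without a filter on low counts, 11 members were lower in granulocyte-like cells, where more members could be tested. Without the replicate block that pairs classes by pool, members higher and lower were 13 and 17 (leukocyte side), 4 and 14 (OBP-like), 6 and 14 (MALP-like), 5 and 5 (OB1-like), 3 and 7 (Ocy-like), 8 and 6 (granulocyte-like) and 4 and 10 (osteoclast-like), each within 1.5 times the blocked count.

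Called members that turned sign, as log2 fold changes, were *Itgb1* in OBP-like (-0.15), *Ptk2* in MALP-like (0.08), *Actn1* in OB1-like (-0.06) and *Pxn* and *Zyx* in granulocyte-like cells (-0.28 and -0.03) with totals alone, and *Tln1* in MALP-like cells (-0.01) with contractile genes in the LMP-like gate. The cause was not tested.

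Of these, *Itgb1* (OBP-like) and *Pxn* (granulocyte-like) were called lower with totals alone. The other turns of sign were of members not called as reported. With totals alone they were *Flna* (leukocyte side, 0.05), *Ilk* and *Parva* (MALP-like, 0.19 and 0.17), *Itga10*, *Tln1*, *Ptk2* and *Fermt2* (OB1-like, -0.16, -0.14, -0.16 and -0.18), *Itga5*, *Itga10*, *Itgav* and *Parva* (Ocy-like, 0.03, 0.10, 0.03 and 0.12), and *Itga5* and *Flna* (osteoclast-like, 0.06 and 0.11). Of these *Ilk* and *Parva* (MALP-like) were called higher and *Tln1*, *Ptk2* and *Fermt2* (OB1-like) lower with totals alone. Without the block they were *Pxn* (OBP-like, 0.02), *Itga1*, *Itga9* and *Zyx* (OB1-like, 0.06, 0.05 and 0.00) and *Vcl* (Ocy-like, -0.03). Without a low-count filter they were *Itgb5* (leukocyte side, -0.03), *Itga10*, *Ptk2* and *Fermt2* (OB1-like, -0.02, -0.02 and -0.03) and *Tln1* (osteoclast-like, -0.02). Without pool 13 they were *Flna* (leukocyte side, 0.06) and *Itga1* (OB1-like, 0.06). With at least 50 cells they were *Itga1*, *Itga10* and *Fermt2* (OB1-like, 0.01, -0.04 and -0.05) and *Tln1* (osteoclast-like, -0.00). In the second run they were *Flna* (leukocyte side, 0.08), *Pxn* (OBP-like, 0.18), *Itga9* and *Fermt2* (OB1-like, 0.16 and -0.00), *Vcl* (Ocy-like, -0.02), and *Tln1* and *Ptk2* (osteoclast-like, -0.09 and -0.08). With the stricter gate they were *Flna* (leukocyte side, 0.07), *Itga1* and *Itga10* (OB1-like, 0.00 and -0.03) and *Itga5* (Ocy-like, 0.07). With doublets kept they were *Flna* (leukocyte side, 0.08), *Pxn* (OBP-like, 0.05), *Itga1*, *Itga9* and *Fermt2* (OB1-like, 0.13, 0.06 and -0.02) and *Itga5* (Ocy-like, 0.00). With the contractile gate it was *Pxn* (OBP-like, 0.04). The weakest members, *Itga8*, *Itgb4* and *Itgb6*, had 621, 548 and 179 UMIs over both sides, and the classes with few pools rest on few cells. The part of depth was not tested.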

Other observations

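Members were also measured in 2 rare classes. The genes named were chosen after the values were seen, cells were pooled over pools, and intervals are 95% Poisson intervals of counting error, with no test. In 92 endothelial-like cells from 15 pools, *Itga3*, a laminin receptor subunit, was at 1.24 UMIs per 10,000 (1.07 to 1.42) and *Itga6* at 1.13 (0.97 to 1.3). Without the pool with the most cells *Itga3* was at 1.31. *Itgb3* was at 1.54 (1.36 to 1.75).

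In 64 glial-like cells, 28 of them from pool 2, *Itgb1* was at 9.74 (9.01 to 10.5), *Itga1* at 2.89 (2.5 to 3.32), *Itgb8* at 1.63 (1.34 to 1.96), *Itga7* at 1.35 (1.09 to 1.66) and *Itgb4*, the partner of alpha 6 in hemidesmosomes, at 0.667 (0.486 to 0.892). Of the 6 members under 0.1 in the main classes, *Itga8* and *Itgb6* stayed low in these classes as well.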
